A study of Mus musculus with 12 samples.

Results

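Terminal oligopyrimidine (TOP) mRNAs begin with a C followed by an unbroken run of pyrimidines (C or T in the DNA). Most of them encode ribosomal proteins and translation factors, and a smaller number encode other abundant proteins. The genes described here are Tpt1, Pabpc1, Nap1l1, Vim, Fau, Naca and Btf3, 7 genes whose mRNAs are known as TOP mRNAs and whose symbols belong neither to the Rpl and Rps genes nor to the initiation and elongation factors. Probes were taken as members when their transcript accession belonged to one of these genes. This gave 6 probes, 1 for each of 6 genes, of the 41174 non-control probes of the array. No probe was matched to Nap1l1, which is not analysed here.

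3T3-L1 is a mouse embryonic fibroblast line, used as a preadipocyte, that differentiates into adipocytes in culture. Cells were lysed without hormones (0 h), days after they had reached confluence, or 6 h after a change of medium at that point. The new medium held fetal bovine serum in place of newborn bovine serum, with 0.5 mM isobutylmethylxanthine (IBMX), 1 µM dexamethasone and 5 µg/ml insulin. The lysates, which held cycloheximide, were separated on sucrose gradients, with fractions 5 to 7 combined into a non-polysomal pool and 9 to 11 into a polysomal pool. Each of the 4 groups (0 h non-polysomal, 0 h polysomal, 6 h non-polysomal, 6 h polysomal) was measured on 3 one-color arrays, which the methods call biological replicates, and each of 3 slides held the arrays of 1 replicate number, 1 of every group. The hormones, the serum and the hours in culture changed together between 0 h and 6 h, so their effects cannot be told apart. The methods state that spike-in RNAs were added in an amount set for a given mass of RNA, so that relative RNA amounts could be compared later. They do not state what mass of each pool was labelled. If the spike-ins were in proportion to the RNA, every signal is a level per amount of RNA in a pool. Fewer cells of a type and less RNA per cell cannot be told apart in such pools.

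TOP mRNAs are known for a translation that follows the supply of nutrients and growth factors through the kinase complex mTORC1. When mTORC1 is inactive they are held in particles without ribosomes, bound by the protein Larp1 among others, and when it is active they are loaded with ribosomes and sediment with the polysomes. The ratio of a transcript between heavy and light gradient fractions is the usual readout of that state. Tpt1 encodes the translationally controlled tumor protein, an abundant protein with roles in growth and survival. Pabpc1 encodes the cytoplasmic protein that covers poly(A) tails, and its mRNA also carries an A-rich stretch near its start that the protein itself binds. Vim encodes vimentin, the intermediate filament protein of fibroblasts and other mesenchymal cells. Fau encodes a ubiquitin-like protein fused to the ribosomal protein S30, so that its product enters the ribosome although its symbol is not an Rps symbol. Naca and Btf3 encode the alpha and beta subunits of the nascent polypeptide-associated complex, which binds growing chains at the ribosomal exit. Nap1l1 encodes a nucleosome assembly protein.

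The sequences around the annotated transcription starts are shown because they define the class. Each line gives 30 bases, 15 on either side of the boundary before the first transcribed base, from the RefSeq annotation of GRCm38.p6, with the genome position and strand. Capitals mark the longest run of at least 5 C or T letters that begins with C within 15 bases of the start, as far as it lies inside the printed bases. Each window covers the end of the promoter and the first bases of exon 1 of the gene.
Tpt1, chr14:75845241-75845270, plus strand: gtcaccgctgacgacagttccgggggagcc
Fau, chr19:6057932-6057961, plus strand: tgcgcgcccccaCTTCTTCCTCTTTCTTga
Vim, chr2:13574296-13574325, plus strand: tggcgttgtccagtCCTCTgccactcttgc
Naca, chr10:128035331-128035360, plus strand: gcaactcgttCTCTTaaagaggaaacccgg
Btf3, first start, chr13:98316992-98317021, minus strand: tgaattctggaggaagtggcgtcgcgttaC
Btf3, second start, chr13:98316953-98316982, minus strand: CCCTCTagctgccatcttgcgtccccgcgt
Nap1l1, chr10:111473212-111473241, plus strand: ggcgggctctcgggtCTTTTTTagcgccat
The search read the transcribed strand only. A run of at least 5 pyrimidines beginning with C could be read from the first transcribed base in 2 of the 7 entries (28.6%), those of Fau and Nap1l1. The same held for 18.2% of 77 Rpl and Rps promoters and for 2.51% of all 32851 promoters of the table. With a run allowed to begin within 15 bases of the start, 6 of the 7 entries held one (85.7%), against 64.9% of the Rpl and Rps promoters and 40.1% of all. The unbroken Fau run was 16 bases long, with its first base 3 bases before the annotated start, and the Nap1l1 run had 7 bases from the start on, whereas those of Vim and Naca had 5. The Vim run began 1 base before the annotated start and the Naca run 5 bases before it. For Btf3 the runs began 15 bases after the first and 15 bases before the second start. The window of Tpt1 held none. A missing run says only that these letters are not next to the start that RefSeq annotates. Pabpc1 is named only.

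The 12 arrays were similar in quality. The 75th percentile of the background-subtracted intensities was 241 to 269 in the 0 h non-polysomal, 449 to 514 in the 0 h polysomal, 253 to 281 in the 6 h non-polysomal and 426 to 567 in the 6 h polysomal arrays. No spot of a non-control probe was saturated. The spots of the spike-ins were not counted for saturation. Arrays of a group correlated at r = 0.9964 to 0.9982 over 20127 probes. All 18 probes for preadipocyte and fibroblast markers, among them Col1a1, Dlk1 and Pdgfra, were well above background on every array. Of 13 probes for mature adipocyte markers, 9 were so as well, among them those of Fabp4, and 3 never were. The summed signal of these 13 was 41780 to 44000 in the 0 h non-polysomal and 39680 to 40490 in the 6 h non-polysomal fraction. In the polysomal fraction it was 87310 to 103600 at 0 h and 170300 to 177900 at 6 h. The 13 probes for early hormone response genes, such as Fkbp5 and Cebpb, had a summed signal of 16530 to 37910 in the 0 h non-polysomal, 73880 to 79890 in the 6 h non-polysomal, 90650 to 106800 in the 0 h polysomal and 412600 to 445100 in the 6 h polysomal fraction. The value of 16530 is from an array without a value for Cebpd, which had a mean log2 signal of 14.23 in that group. It is therefore too low to compare with the other sums. Of the 8 leukocyte, 5 endothelial and 3 epithelial probes, 5, 3 and 2 were never well above background. The summed signals of these 3 lists stayed between 9.24 and 269, and their highest values at 6 h were in the polysomal fraction (255 to 269, 41.7 to 56.9 and 101 to 110), mainly through Cd3e, Cdh5 and Krt5. Their part in the results was not tested. All 6 member probes were well above background on 12 of 12 arrays, so no value below is a bound.

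The spike-ins carry one limit that touches every comparison with the 6 h polysomal arrays. The mean spike-in level of these arrays lay 0.35 ± 0.14 (SD, n = 3) below the common level on the log2 scale, whereas the offsets of the other groups averaged 0.10 to 0.13. The 5 dimmest spike-ins were 0.76 to 0.91 lower there than on the other arrays, and the 5 brightest only 0.02 to 0.28 lower. The signals of Vim and Fau in the 6 h polysomal fraction lay in the range of the bright spike-ins and those of the other members in the range of the dim ones. The part of this in the results was not tested. The median over all probes therefore stands beside the members below, and the plot of M-values by scaling shows how far the members move.

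The main question was whether the distribution of these mRNAs between the non-polysomal and the polysomal fraction changed during the first 6 h. It is measured by the M-value, the log2 difference between polysomal and non-polysomal signal at 6 h minus the same difference at 0 h. A positive M-value means a shift towards the polysomal fraction. All 6 probes had a positive M-value with an adjusted p below 0.05 in limma, as did 32.1% of all 41155 probes with an M-value, while 3.98% passed the test with a negative one. A call also required an M-value above 1, which 5 of the 6 passed (12.1% of all probes), and 0 of the 6 were below -1 (1.31% of all probes). With dim probes left out, 4428 of 25007 probes were called above 1 and 513 below -1. The M-values were 2.78 for Tpt1, 2.59 for Vim, 1.61 for Fau, 1.49 for Naca, 1.36 for Btf3 and 0.95 for Pabpc1, with a median of 1.55 against 0.49 over all probes. Relative to that median of all probes, they were 2.29, 2.10, 1.12, 1.01, 0.88 and 0.47 in the same order. With normexp background correction fitted on all spots, Tpt1 and Vim passed the test, while Fau (1.38), Naca (1.15) and Btf3 (1.04) each had an adjusted p of 0.073 and Pabpc1 (0.60) one of 0.14. The median of all probes was 3.20 in that setting, above all 6 members. Pabpc1 also passed 1 without 0 h polysomal replicate 2 (1.00) and without replicate 2 (1.03).

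**Figure D1:**
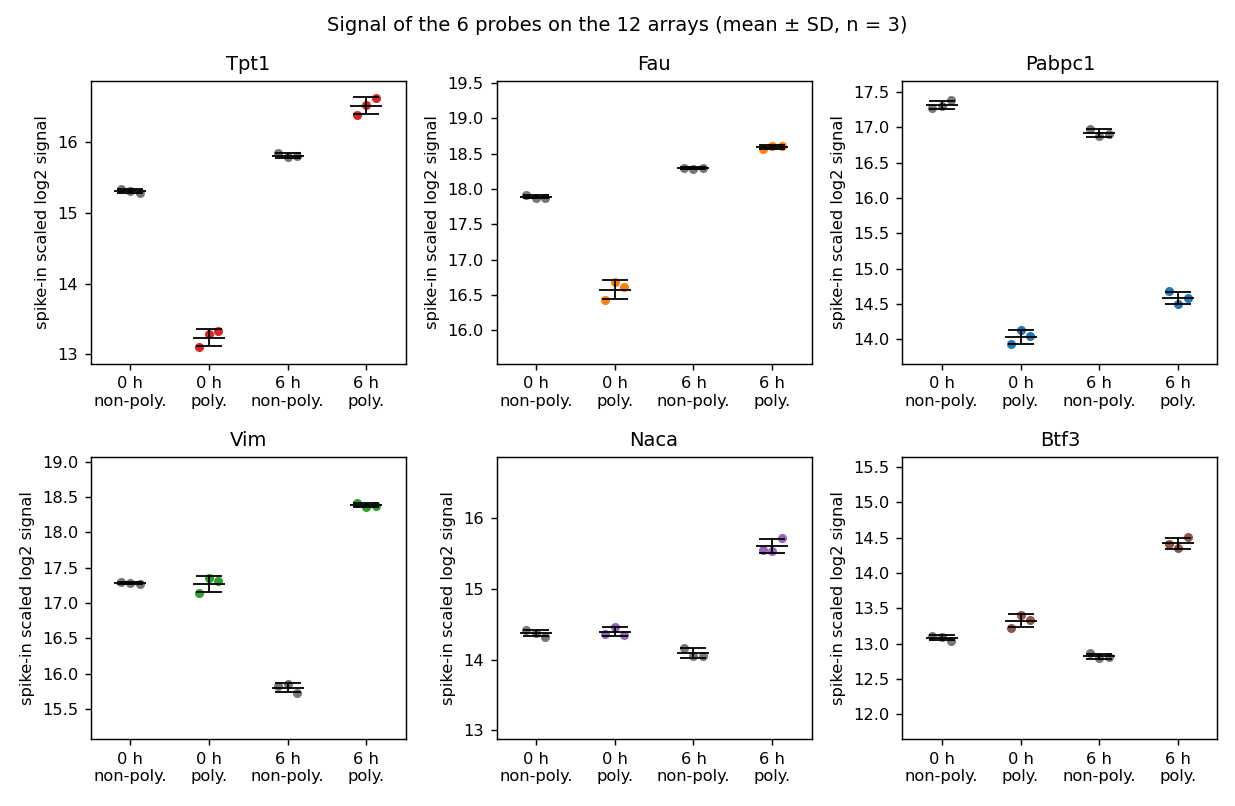
Spike-in scaled log2 signal (vertical axis) of the 6 probes on the 12 arrays, 1 panel a gene and each vertical axis spanning 4 log2 units. Points are arrays in the order of replicates 1 to 3, grey for the non-polysomal and coloured for the polysomal fraction, and bars are mean ± SD (n = 3). In every panel the 6 h polysomal points lie above the 0 h polysomal points, and in those of Tpt1 and Fau the order of the fractions is turned between 0 h and 6 h.

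Tpt1 mRNA had the highest M-value of the 6. In the polysomal fraction its log2 signals were 13.10, 13.29 and 13.32 at 0 h and 16.39, 16.53 and 16.63 at 6 h. In the non-polysomal fraction they were 15.34, 15.31 and 15.28 at 0 h and 15.85, 15.79 and 15.80 at 6 h. Each group lay apart from every other, with the 0 h polysomal arrays lowest and the 6 h polysomal arrays highest. The polysomal signal rose 9.70-fold, a log2 change of 3.28 ± 0.08 (SE, n = 3 arrays a group, adjusted p = 1.9e-09 in limma), and only 325 probes of the whole array had a higher value. The non-polysomal signal rose as well, by 0.50 ± 0.08 (SE, adjusted p = 0.00073), but by 0.16 with quantile normalization (adjusted p = 0.074), and with normexp on all spots the rise had an adjusted p of 0.39. Before induction Tpt1 was 4.21-fold lower in the polysomal than in the non-polysomal fraction (log2 difference -2.07, adjusted p = 8.5e-09), and 6 h later 1.63-fold higher (0.70, adjusted p = 3e-05). The latter sign was turned by scaling to the 75th percentile (-0.61) and by quantile normalization (-0.22). The M-value of 2.78 ± 0.12 (SE, adjusted p = 1.2e-06) was 2.76 to 2.78 within the 3 slides, and 195 probes had a higher one.

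Fau, the fusion gene of ribosomal protein S30, followed the same course on a smaller scale. Its polysomal log2 signals were 16.43, 16.69 and 16.61 at 0 h and 18.57, 18.61 and 18.61 at 6 h. Its non-polysomal signals were 17.92, 17.88 and 17.88 at 0 h and 18.30, 18.29 and 18.30 at 6 h. As for Tpt1, no groups overlapped, and the polysomal arrays were lowest at 0 h and highest at 6 h. The rise was 4.05-fold in the polysomal fraction (2.02 ± 0.07, SE, adjusted p = 1.1e-08) and 1.33-fold in the non-polysomal fraction (0.41 ± 0.07, SE, adjusted p = 0.0011). The polysomal minus non-polysomal difference went from -1.31 (adjusted p = 7.2e-08) to 0.30 (adjusted p = 0.0049). The positive value at 6 h was -1.02 with the 75th percentile and -0.08 with the 5 brightest spike-ins, and did not pass the test without replicate 3 (0.29, adjusted p = 0.077), nor did the non-polysomal rise (0.40, adjusted p = 0.053). That rise was 0.17 with quantile normalization (adjusted p = 0.019) and had an adjusted p of 0.39 with normexp on all spots. The M-value of 1.61 ± 0.10 (SE, adjusted p = 5.1e-06) ranged from 1.51 to 1.75 within slides.

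Vim mRNA was the only one of the 6 whose signal fell by more than 1 log2 unit in the non-polysomal fraction. Its non-polysomal log2 signals were 17.29, 17.29 and 17.27 at 0 h and 15.82, 15.85 and 15.73 at 6 h. Its polysomal signals were 17.14, 17.35 and 17.31 at 0 h and 18.41, 18.36 and 18.37 at 6 h. The 2 fractions thus overlapped before induction and lay on opposite sides of their former level 6 h later. The polysomal signal rose 2.16-fold (1.11 ± 0.07, SE, adjusted p = 5.5e-07) and the non-polysomal signal fell 2.79-fold (-1.48 ± 0.07, SE, adjusted p = 1.5e-07). The difference between the fractions was -0.01 at 0 h (95% interval -0.17 to 0.15, adjusted p = 0.93) and 2.58 ± 0.07 at 6 h (SE, adjusted p = 5.5e-10). With quantile normalization the polysomal rise was 0.13 (adjusted p = 0.12), and with the 75th percentile the difference at 0 h was -0.90 (adjusted p = 2.8e-07). The M-value of 2.59 ± 0.10 (SE, adjusted p = 1.1e-06) was 2.44 to 2.74 within slides. Tpt1 and Vim reached similar M-values from different directions with the spike-in offset, their difference within slides being 0.04 to 0.32. With quantile normalization they lay further apart, at 2.21 for Tpt1 and 1.74 for Vim.

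Naca and Btf3, the subunits of 1 complex, behaved alike. The polysomal log2 signals of Naca were 14.36, 14.47 and 14.36 at 0 h and 15.56, 15.54 and 15.72 at 6 h. Its non-polysomal signals were 14.42, 14.38 and 14.33 at 0 h and 14.17, 14.05 and 14.06 at 6 h. The fractions of Naca overlapped at 0 h and were well apart at 6 h. The polysomal log2 signals of Btf3 were 13.23, 13.40 and 13.34 at 0 h and 14.41, 14.35 and 14.51 at 6 h. Its non-polysomal signals were 13.11, 13.09 and 13.04 at 0 h and 12.86, 12.79 and 12.81 at 6 h. The fractions of Btf3 lay close together without overlap at 0 h and far apart at 6 h.

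In the polysomal fraction Naca rose 2.31-fold (1.21 ± 0.08, SE, adjusted p = 3.6e-07) and Btf3 2.15-fold (1.10 ± 0.07, SE, adjusted p = 5.4e-07). In the non-polysomal fraction Naca changed by -0.28 (adjusted p = 0.012) and Btf3 by -0.26 (adjusted p = 0.014), values that no longer passed the test with the 5 brightest spike-ins or without any 1 replicate number, and for Btf3 also without 0 h non-polysomal replicate 1 or 6 h non-polysomal replicate 2. With quantile normalization the polysomal change of Naca was 0.04 (adjusted p = 0.58). Before induction the signals of both mRNAs were similar in the 2 fractions, with a difference of 0.02 for Naca (95% interval -0.15 to 0.19, adjusted p = 0.87) and of 0.24 for Btf3 (95% interval 0.08 to 0.40, adjusted p = 0.017). The value of Btf3 did not pass without 0 h non-polysomal replicate 3 (0.22, adjusted p = 0.060), without 0 h polysomal replicate 2 (0.20, adjusted p = 0.057) or without any 1 replicate number. The 75th percentile turned the values of Naca and Btf3 to -0.87 and -0.65 and quantile normalization to -0.15 and -0.30. At 6 h both were higher in the polysomal fraction, by 1.51 and 1.60 (adjusted p = 2.1e-08 and 1e-08). The M-values of 1.49 ± 0.11 and 1.36 ± 0.10 (SE, adjusted p = 8.8e-06 and 1.2e-05) differed by -0.0004 to 0.23 within slides, so the slides did not separate them.

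Pabpc1 mRNA had a lower signal in the polysomal than in the non-polysomal fraction at both times. Its non-polysomal log2 signals were 17.27, 17.31 and 17.38 at 0 h and 16.98, 16.87 and 16.91 at 6 h. Its polysomal signals were 13.93, 14.13 and 14.05 at 0 h and 14.68, 14.51 and 14.58 at 6 h. No groups overlapped, but every polysomal array lay more than 2 log2 units below every non-polysomal array. Pabpc1 was 9.74-fold lower in the polysomal fraction at 0 h (-3.28 ± 0.08, SE, adjusted p = 1.4e-09) and 5.03-fold lower at 6 h (-2.33 ± 0.08, SE, adjusted p = 1.4e-09). Only 0.736% of all probes had a lower value at 0 h and 1.91% at 6 h. The polysomal signal rose 1.47-fold (0.55 ± 0.08, SE, adjusted p = 0.00017), close to the median of all probes (0.54), and the non-polysomal signal fell 1.32-fold (-0.40 ± 0.08, SE, adjusted p = 0.0020), which did not pass without replicate 3 (-0.36, adjusted p = 0.081). The polysomal change was -0.54 with quantile normalization and did not pass the test with the 75th percentile (0.07, adjusted p = 0.51) or the 5 brightest spike-ins (0.15, adjusted p = 0.33). The M-value of 0.95 ± 0.11 (SE, adjusted p = 0.00015) was 0.81 to 1.04 within slides, 21.6% of all probes had a higher one, and with quantile normalization it was 0.09 (adjusted p = 0.48).

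**Figure D2:**
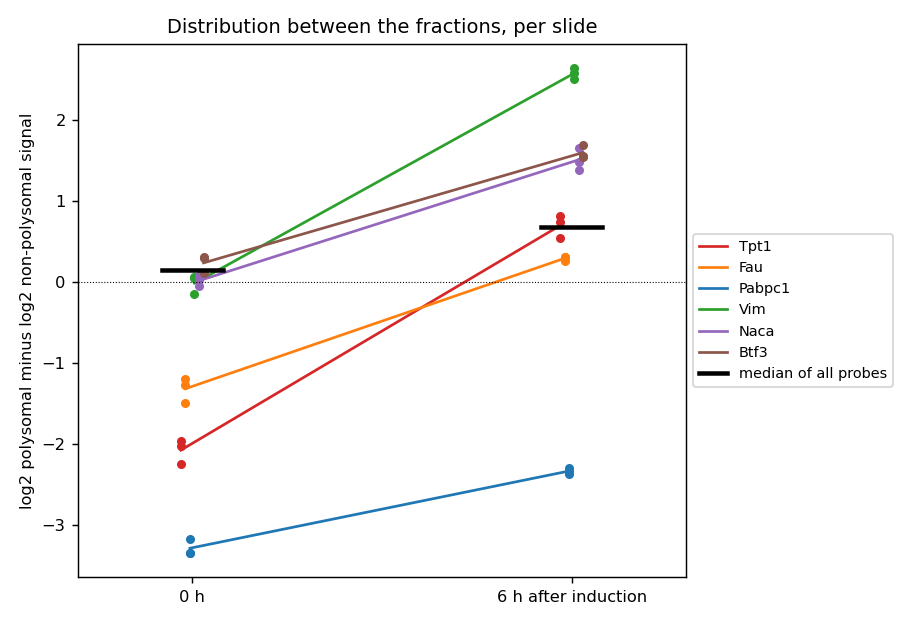
Log2 polysomal minus log2 non-polysomal signal (vertical axis) at 0 h and 6 h. Points are the values within the 3 slides, lines join the means of a gene, and black bars are the medians of all probes (0.15 and 0.68). At 0 h Vim, Naca and Btf3 lie near 0 while Fau, Tpt1 and Pabpc1 lie at -1.31, -2.07 and -3.28, and at 6 h all but Pabpc1 (-2.33) lie above 0.

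The differences between the fractions spread the members from -3.28 to 0.24 before induction and from -2.33 to 2.58 at 6 h. At 0 h, Tpt1, Fau and Pabpc1 were at least 1 log2 unit lower in the polysomal fraction, 3 of 6 against 9.81% of all probes, and 0 of 6 were at least 1 unit higher, against 27.4% of all probes. At 6 h Vim, Naca and Btf3 were called higher in the polysomal fraction, 3 of 6 against 37.4% of all probes, and Pabpc1 was called lower (6.41% of all probes). In the polysomal fraction, 5 of 6 rose by more than 1 unit between 0 h and 6 h (19.2% of all probes) and 0 of 6 fell by that much (5.01%). In the non-polysomal fraction 0 of 6 rose by more than 1 unit (8.09% of all probes) and only Vim fell by that much (8.14%). The members are bright, and the shares of all probes include dim ones. With dim probes left out, 13891 of 25023 were called higher in the polysomal fraction at 6 h and 2487 lower. At 0 h these counts were 10873 and 3628 of 25010. In the polysomal fraction 6794 of 25025 rose by more than 1 unit and 1959 fell by that much. So 3 of 6 called higher at 6 h does not stand above the share of brighter probes. These differences share groups and are not independent, and with 6 members the shares are a description.

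**Figure D3:**
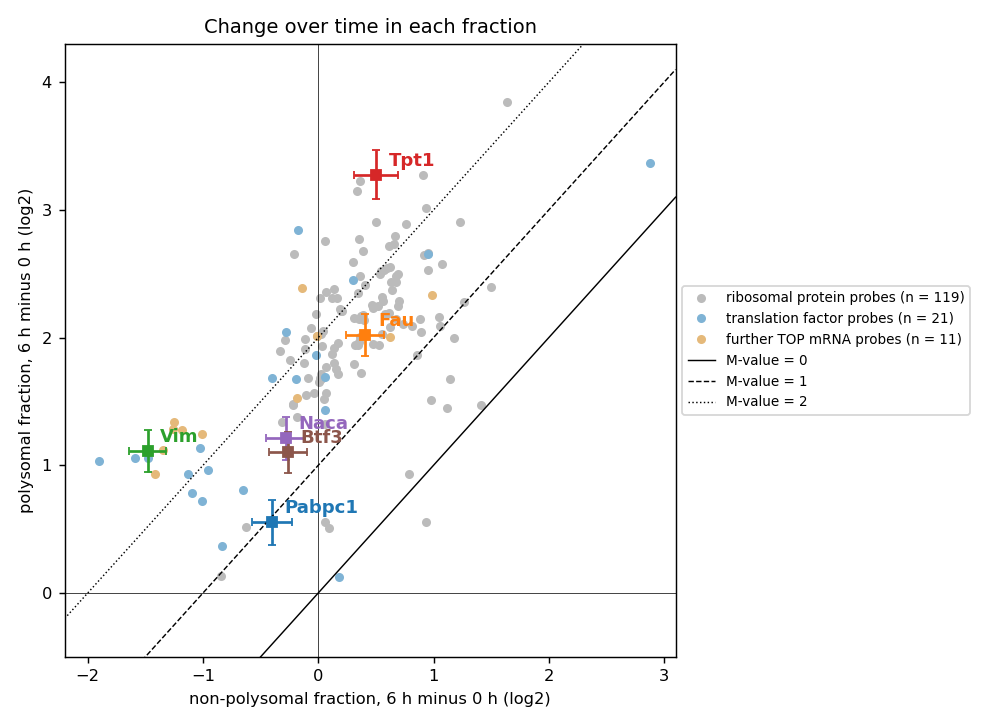
Log2 change from 0 h to 6 h in the non-polysomal (horizontal axis) and the polysomal fraction (vertical axis), per probe. Squares are the 6 members with 95% intervals of the fit, circles are probes of ribosomal proteins, translation factors and further TOP mRNAs, and diagonal lines mark M-values of 0, 1 and 2. Tpt1 and Fau lie right of 0 among the ribosomal proteins, Vim lies far to the left, and Naca, Btf3 and Pabpc1 lie slightly left of 0.

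The mRNAs whose signals over the 12 arrays were most like those of a member were sought among 16579 probes with a gene symbol and a signal well above background on every array. The 3 most like Tpt1 were Rpl27a, Rpl28 and Rpl29 (Pearson r = 0.9976, 0.9974 and 0.9966), which encode proteins of the large ribosomal subunit. For Fau they were Rpl29, Rpl32 and Rps14 (r = 0.9984, 0.9972 and 0.9966), again all ribosomal. Tpt1 and Fau correlated with each other at r = 0.9966. The 3 most like Vim were Mta1, Hnrnpa1 and Ipo5 (r = 0.9942, 0.9934 and 0.9916), of which Hnrnpa1 encodes an RNA-binding protein and Ipo5 a nuclear import receptor. For Naca they were Cyren, Pip4k2b and Tbc1d13 (r = 0.9966, 0.9938 and 0.9934) and for Btf3 B2m, Ifitm2 and Cct2 (r = 0.9968, 0.9967 and 0.9967), none of them a ribosomal protein. Naca and Btf3 correlated at r = 0.989. The 3 most like Pabpc1 were Pabpc2, Vegfb and the noncoding Stk35os1 (r = 0.9989, 0.9987 and 0.9984), with M-values of 1.00, 1.07 and 1.02 and differences between fractions at 0 h of -3.98, -4.18 and -3.49. Pabpc1 and Vim ran against each other (r = -0.57). These values describe 12 arrays that fall into 4 groups, so they mostly describe the order of the group means.

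The other TOP mRNAs on the array shifted in the same direction. The medians of the 3 lists below were positive under all 11 settings of scaling, background and filters that were run, from 1.04 to 2.80. Their distance to all probes was not kept, since with normexp on all spots all 3 medians (at most 2.16) lay below that of all probes (3.20), and with a line in place of an offset the ribosomal proteins (1.78) lay closer to it (1.42). Of 119 probes for 83 genes with Rpl or Rps symbols, 113 had a positive M-value past the test, 1 a negative one and 5 did not pass, against 32.1% and 3.98% of all probes, with a median of 1.74. The highest was Rpl28 (2.87 ± 0.13, SE) and the lowest Rps27l (-0.38 ± 0.10, SE, adjusted p = 0.014), a paralog of the ribosomal protein gene Rps27. Of 21 probes for 13 translation factors known as TOP mRNAs, 19 were past the test and higher, with a median of 1.88, from Eef1a1 (3.02) down to Eif3a (-0.06, adjusted p = 0.68). All 11 probes of a list of 6 further TOP mRNAs were called (12.1% of all probes), with a median of 2.34. The list shares 1 probe, that of Rps27a, with the ribosomal proteins. Among these the nucleolar chaperone Npm1 (2.59 and 2.55) and the splicing regulator Hnrnpa1 (2.34 to 2.47) resembled Vim, with a rise in the polysomal fraction of 0.93 to 1.34 and a fall in the non-polysomal fraction of -1.18 to -1.42. They also began near equality between the fractions, at -0.02 to 0.10. The mitochondrial ADP/ATP carrier Slc25a5 had the same changes over time (1.25 and -1.01) but began at 1.18. Rps27a, which encodes a ubiquitin fused to a ribosomal protein, had an M-value of 2.02 ± 0.10 (SE, adjusted p = 1.7e-06) and no non-polysomal change past the test (-0.01, adjusted p = 0.94).

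**Figure D4:**
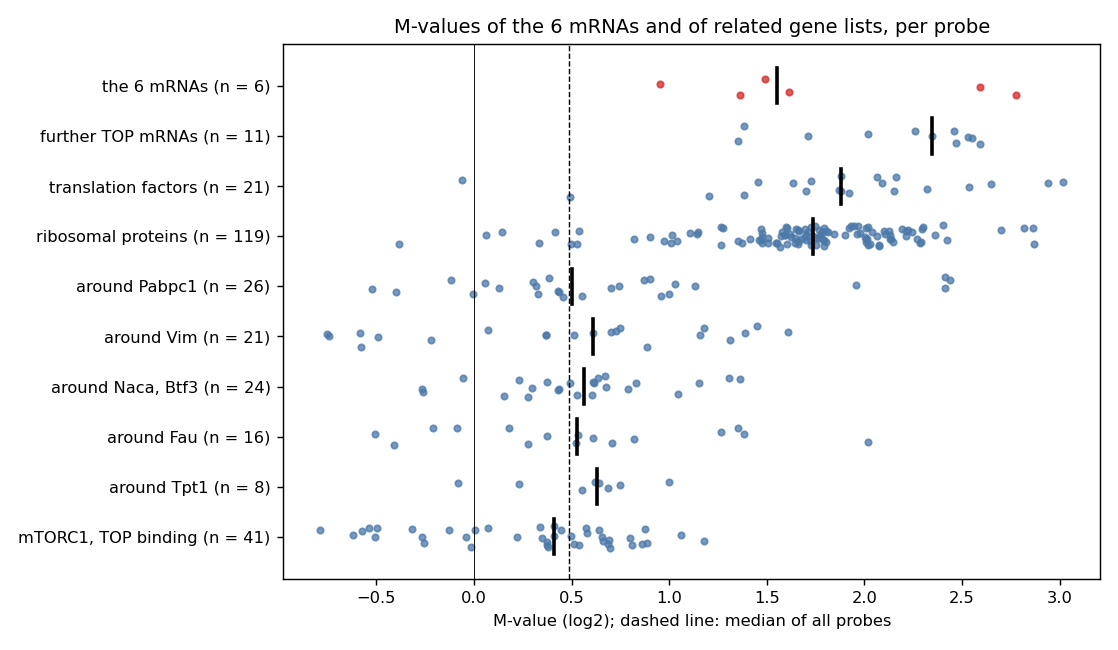
M-values (horizontal axis, log2) of single probes for the 6 members (red) and for lists of related genes (blue), with the number of probes in brackets. Black bars are medians and the dashed line is the median of all probes, 0.49. The 3 lists of TOP mRNAs have medians of 1.74 to 2.34, and the other 6 lists plotted have medians of 0.41 to 0.63.

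The functional relatives of the members, most of which are not known as TOP mRNAs, had medians of 0.34 to 0.63, close to the 0.49 of all probes. The counts past the test below stand beside 32.1% of all probes that passed it higher and 3.98% lower. Of 26 probes for relatives and partners of Pabpc1, 14 were past the test and higher and 12 did not pass, with a median of 0.50. The 4 called probes were both of Pabpc4, 1 of 3 of Pabpn1 and that of Tob1 (1.13 ± 0.15, SE, adjusted p = 0.00025), an antiproliferative protein that binds the Pabpc1 protein. Pabpc4, a cytoplasmic relative, shifted far more than Pabpc1, with M-values of 2.44 ± 0.13 and 2.41 ± 0.16 on its 2 probes (SE, adjusted p = 1.9e-06 and 6.8e-06), and rose by 2.32 and 2.36 in the polysomal fraction. It went from -2.24 and -2.10 between the fractions at 0 h to 0.20 and 0.32 at 6 h, whereas Pabpc1 went from -3.28 to -2.33. Pabpc2 had an M-value of 1.00 ± 0.11 (SE, adjusted p = 9.5e-05) on its bright probe and differences of -3.98 and -2.98 between the fractions. It is a close relative of Pabpc1, and whether the 2 probes bind both transcripts was not tested. The 3 probes of Pabpn1, the nuclear poly(A)-binding protein, gave 2.41, 0.96 and 0.90. The translation factor Eif4g1, to which the Pabpc1 protein binds, had 0.38 and 0.55, and its partner Paip1 had -0.40 to 0.13 with no probe past the test.

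Around Vim, 21 probes for 12 intermediate filament and lamina genes had a median of 0.61, with 7 higher, 4 lower and 10 not past the test. Lmna, which encodes the nuclear lamins A and C, was called on all of its 3 probes (1.16 to 1.39), and unlike Vim it was already 2.24 to 2.81 higher in the polysomal fraction at 0 h. Plec, which encodes the linker protein plectin, had the lowest probe at -0.75, while its others gave -0.59 and -0.22 (adjusted p = 0.27 for the latter). The polysomal changes of these probes were 0.32, -0.71 and -1.15 in the same order, so they differed in direction. Around Naca and Btf3, 24 probes for 14 genes of nascent chain handling and targeting had a median of 0.57 (14 higher, 0 lower, 10 not past the test). The paralog Btf3l4 was the highest, with 1.36 ± 0.13 and 1.15 ± 0.12 (SE, adjusted p = 4.2e-05 and 7.8e-05), an M-value close to that of Btf3, but its non-polysomal signal fell by 0.67 and 0.85 where that of Btf3 fell by 0.26. Subunits of the signal recognition particle ranged from Srp68 (-0.27, adjusted p = 0.059) to Srp72 (1.05 on 1 of 3 probes). Around Fau, 16 probes for 11 ubiquitin and ubiquitin-like genes had a median of 0.53, with 10 higher, 2 lower and 4 not past the test. Of the 4 called, Rps27a (2.02) was the highest, and 1 was a probe of Urm1, which encodes a ubiquitin-related modifier. Around Tpt1, 8 probes for partners of its protein had a median of 0.63 (6 higher, 0 lower), of which 1 of 2 Trp53 probes reached 1.00. For Nap1l1, which has no value here, the 14 probes for relatives had a median of 0.34 (4 higher, 2 lower, 8 not past the test). The 1 probe called below -1 was that of the paralog Nap1l2 (-1.78 ± 0.39, SE, adjusted p = 0.0056), a dim probe that cleared the background on 3 arrays, so its value measures no size of shift. The paralog Nap1l4 had 0.22, -0.40 and 0.37, of which only -0.40 passed the test (adjusted p = 0.031).

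A mixed list of mTORC1 genes, other genes of its pathway such as Tsc1 and Rps6kb1, and proteins that bind the TOP element had a median close to that of all probes. Of 41 probes for 21 of these genes, 20 were higher (32.1% of all probes), 5 lower (3.98%) and 16 not past the test, with a median of 0.41 against 0.49 over all probes, and the median was -0.10 to -0.02 with quantile normalization, the 75th percentile or the 5 brightest spike-ins. The 2 called were Cnbp (1.18 ± 0.11, SE, adjusted p = 3.4e-05), a nucleic acid-binding protein, and 1 of 5 probes of Larp1 (1.06 ± 0.22, SE, adjusted p = 0.0045), whose other 4 probes gave 0.38 to 0.89. Mtor, the kinase, was lowest (-0.79 ± 0.12, SE, adjusted p = 0.00060), with a rise of 1.56 in the non-polysomal and of 0.77 in the polysomal fraction. Rheb, the activator of mTORC1 and a partner of the Tpt1 protein, had 0.64 (adjusted p = 0.0019). The arrays measure mRNA, so they hold no value for the activity of the kinase.

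**Figure D5:**
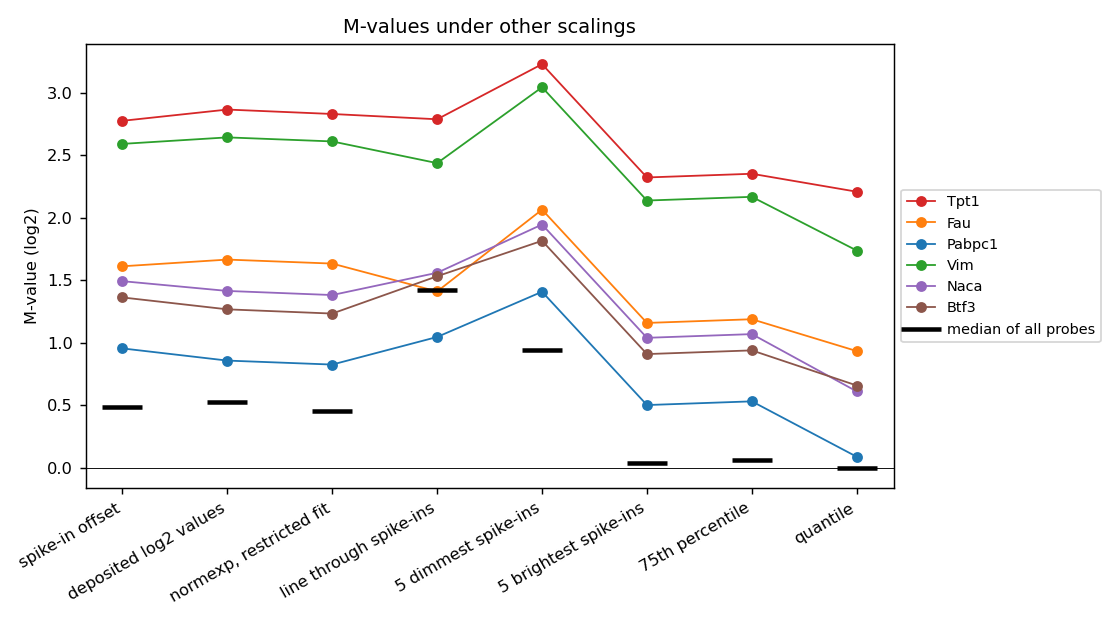
M-values (vertical axis, log2) of the 6 members under 8 ways of scaling the arrays (horizontal axis), with black bars for the median of all probes. Tpt1 and Vim are highest in each, at 1.74 to 3.23, and Pabpc1 is lowest, at 0.09 to 1.41. With a line fitted to the spike-ins the median of all probes (1.42) reaches the values of Fau (1.41), Naca (1.56) and Btf3 (1.53) and lies above that of Pabpc1.

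The order of the members by M-value held up in part. Tpt1 and Vim were highest and Pabpc1 lowest under each of the 8 scalings plotted. For some of them this was fixed in advance. The spike-in offset, the percentile scaling and the offsets from only the brightest or dimmest spike-ins shift all probes of an array equally. They cannot change the order or the distance to the median of all probes. Quantile normalization, the line and normexp can, and there Tpt1 and Vim stayed highest and Pabpc1 lowest. Fau, Naca and Btf3 changed places with each other. The distance to the background depended on the scaling more than the order did. Relative to the median of all probes, Fau, Naca and Btf3 were above it by 0.88 to 1.12 with the spike-in offset, but by -0.01, 0.14 and 0.11 when each array was aligned by a line in place of an offset. With normexp on all spots every member lay below that median, from -0.61 for Tpt1 to -2.60 for Pabpc1.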

How the data were processed

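RNA of 4 groups of time and gradient fraction was hybridised to 12 one-color Agilent arrays (3 a group, grouped as the labels give them). Per the file headers, Feature Extraction 10.7.1.1 made intensities per spot from which background and spatial trends were removed, with no scaling between arrays. The authors also deposited log2 values per probe, shifted by a constant on each array, which were used as an alternative. Accessions were paired with symbols through a RefSeq table (26690 of 41174 probes, 64.8%). In this work, log2 intensities without outlier spots were averaged per probe, and the mean level of 10 spike-ins (32 spots each) was aligned over the arrays. Group means were fitted over all probes in R 4.3.3 with limma 3.58.1 (lmFit, eBayes, Benjamini-Hochberg), with tables read by the data.table package, version 1.17.8. A call is an adjusted p below 0.05 and a log2 value above 1 or below -1. The steps were tested on simulated data. The number of arrays limits the precision.

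The genes named are the members, the 3 non-member genes most correlated with each, and genes of listed relatives, of which those with the highest and lowest M-value are given and others were chosen after their values were seen. The members and lists were chosen with earlier results of these data known. Alternatives were other scalings, the deposited values, normexp (offset 50, on the median spot pixel), filters, a trend in the variance, a replicate block, leaving out arrays and values within slides. The gradient profiles were not used here, and the results of some listed genes are not reported here.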

Additional observations from a re-analysis of the deposited data

Results flagged for a closer look

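For each of the 6 members the change from 0 h to 6 h differed between the polysomal and the non-polysomal fraction, tested as the interaction in limma. The interaction was 2.78 for Tpt1, 2.59 for Vim, 1.61 for Fau, 1.49 for Naca, 1.36 for Btf3 and 0.95 for Pabpc1 on the log2 scale, with a positive sign within 3 of 3 slides for each. The same test was passed in this direction by 32.1% of all probes.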

How the results depend on the processing

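Of the 360 results under another scaling, background correction, filter or variance setting, 320 kept direction and side of the adjusted p threshold, 24 no longer had an adjusted p below 0.05, 1 came to have one, and 15 turned sign. Of 450 with arrays left out, 429 kept both, 16 no longer had an adjusted p below 0.05 and 5 turned sign. The cause was not tested. Settings with only bright or only dim spike-ins, and normexp without spots of non-uniform background, were chosen after seeing the data. Members called by M-value numbered 2 in place of 5 with quantile normalization and with normexp on all spots, where the median of all probes was 3.20 and 101 probes were called, and 6 with the straight line and with the 5 dimmest spike-ins. With the 75th percentile and with the 5 brightest spike-ins the M-value of Btf3 was below 1, so it was not called. Members risen by over 1 in the polysomal fraction numbered 2 with the 75th percentile, quantile normalization, normexp and the 5 brightest spike-ins. Members over 1 higher in the polysomal fraction at 6 h numbered 1 with the 75th percentile and with quantile normalization, and 2 in place of 1 were over 1 lower with the 75th percentile. Leaving out arrays or replicate numbers left 5 members called by M-value, and 6 without 0 h polysomal replicate 2 and without replicate 2. Runs near the start numbered 6 in place of 2 with the wider window.

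Turned signs in the polysomal minus non-polysomal difference at 0 h were, with the 75th percentile, Naca -0.87 and Btf3 -0.65, with quantile normalization Vim 0.37, Naca -0.15 and Btf3 -0.30, with the straight line Vim 0.0074, with normexp Vim 0.087 on all spots and 0.0018 on the restricted ones, with the 5 brightest spike-ins Vim 0.067 and with the 5 dimmest Naca -0.057. Leaving out single arrays gave -0.0523 to 0.0529 for Vim and -0.0153 to 0.0399 for Naca (turned, Vim without 0 h polysomal replicate 1, Naca without 0 h non-polysomal replicate 3 or 0 h polysomal replicate 2), leaving out replicate numbers gave -0.0497 to 0.0584 for Vim (turned without replicate 1) and -0.0114 to 0.0557 for Naca (turned without replicate 2), and slides alone gave Naca -0.051 (slide 1) and Vim 0.068 and 0.049 (slides 2 and 3). At 6 h, Tpt1 was -0.61 and Fau -1.02 with the 75th percentile, Tpt1 -0.22 with quantile normalization and Fau -0.079 with the 5 brightest spike-ins. The polysomal change of Pabpc1 was -0.54 with quantile normalization.

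Over all probes, 4981 had an M-value called above 1 and 541 below -1, against 1545 and 1431 with the 75th percentile, 1268 and 1573 with quantile normalization, 26154 and 57 with the straight line, 1380 and 1463 with the 5 brightest and 15038 and 181 with the 5 dimmest spike-ins, 3402 and 129 with the deposited values, and 2530 and 74 with the restricted normexp. With the replicate number, which is also the slide, as a replicate block the count was 5025 and 535, and the 5 members called kept their calls (Tpt1 2.78, adjusted p = 3.5e-05). The numbers were not taken to pair the samples in the main fit. Of 18 same-numbered pairs of arrays, 4 had a correlation of deviations over 0.1 (-0.10 to 0.42, median 0.07). Of 36 other pairs across groups, 6 did (-0.38 to 0.21, median -0.04). Whether the numbers pair the samples was not tested.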
